A study of Acipenser dabryanus with 12 samples.

Results

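Soybean oil was set against fish oil as the dietary fat in brain tissue of young Yangtze sturgeon (Acipenser dabryanus), which live in fresh water. Of the 12 RNA sequencing libraries analysed here, the 4 brain libraries were used, and of 280408 genes of the de novo Trinity assembly, the 21514 with a mean of at least 5 TPM over these 4 libraries. TPM is a transcript level scaled for transcript length and to the same total in every library. All fish were about 6 months old and had eaten their diet once daily for 7 weeks. The 4 groups, with 1 library each, were soybean oil before the meal, soybean oil after the meal, fish oil before the meal and fish oil after the meal, where before and after mean 1 h from the daily feeding; the labels call the libraries before the meal long-term and those after it postprandial. A single pond held all fish of a diet, so pond and diet cannot be told apart, and feeding state goes with the hour of sampling. Whether a library held RNA of 1 fish or of several pooled fish is not stated: the protocol text speaks of 3 samples per group and time and of 45 libraries, of which 12 are analysed here. It also describes the dissection of liver although these samples are labelled brain.

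Fish oil is rich in eicosapentaenoic and docosahexaenoic acid, the long-chain polyunsaturated fatty acids of the n-3 series, whereas soybean oil supplies mainly linoleic acid with a smaller amount of the n-3 precursor alpha-linolenic acid. Docosahexaenoic acid is a major fatty acid of neural membranes, and fish can make it from shorter precursors with fatty acyl desaturases and elongases to an extent that differs between species. The question the design puts to the brain is therefore which transcripts differ when the preformed long-chain fatty acids are replaced by plant precursors. The files pair no Trinity ID with a gene name, so desaturases, elongases, neuronal or glial markers could not be looked up, and the genes below are described by their levels, their behaviour in the other tissues and their IDs. The label brain could likewise not be checked with named markers. Genes enriched in brain over both other tissues, of which there were 1417, took 8.68% to 10.4% of the TPM in the 4 libraries. They were chosen for high values in these same libraries, so this share is no check of the label.

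The 4 brain libraries differed in how many genes they held. In the soybean oil libraries 52435 genes were at 1 TPM or more before the meal and 66426 after it, against 78832 and 66103 in the fish oil libraries. These numbers overlapped between the diets (exact two-sided permutation test, p = 0.667). The pair before the meal therefore set the library with the fewest detected genes against the one with the most, while the pair after the meal was closely matched. Genes with a mean under 5 TPM took, in the soybean oil libraries, 10.3% of all TPM before the meal and 16.1% after it, and in the fish oil libraries 20.2% and 16.2%. The exact two-sided permutation test of this share gave p = 0.3333, which is the smallest that 2 libraries against 2 allow. All permutation tests here took the libraries of a diet as alike and did not pair them, so feeding state counts as spread. TPM keeps no sequencing depth, so no counting interval can be given.

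Before the meal, brain genes were lower with soybean oil more often than higher. Of the 21514 genes, 975 were at least 2-fold higher in the soybean oil library (4.53%) and 3556 at least 2-fold lower (16.5%) than in the fish oil library, on log2(TPM + 1). The median gene had a log2 fold of -0.18. After quantile normalization, which gives all 4 libraries the same distribution of values, 1708 genes were higher and 2282 lower and the median was 0.07. The predominance of lower genes therefore shrank, and the sign of the median turned, with the scaling. There was 1 library per group, so no test applies to this pair.

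The diet fold before the meal ran with abundance. Among the 10265 genes with a mean of 5 to 10 TPM the median log2 fold was -0.30, and 32.1% were higher with soybean oil. It was -0.05 for the 3384 genes of 20 to 50 TPM, 0.15 for the 595 genes of 100 to 500 TPM and 0.67 for the 180 genes of 500 TPM or more, of which 77.2% were higher with soybean oil. These 180 most abundant genes together took 48.1% of all TPM in the soybean oil library before the meal and 39.1% in the one after it, against 35.5% and 35.4% in the fish oil libraries (exact two-sided permutation test, p = 0.3333, the smallest possible). The soybean oil library before the meal stood highest, and the diets did not overlap. This class was chosen by the mean over the same 4 libraries, however. For the 10 highest genes alone, the share before and after the meal was 13.7% and 11.7% with soybean oil. With fish oil it was 12.8% and 9.25%, so the diets overlapped by that measure (exact two-sided permutation test, p = 0.667). After quantile normalization the median of the 180 genes before the meal was 0.16 and that of the genes of 5 to 10 TPM was 0.04. Detected genes and this concentration of TPM moved together across the pair; the part of either in the fold was not tested.

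**Figure D1:**
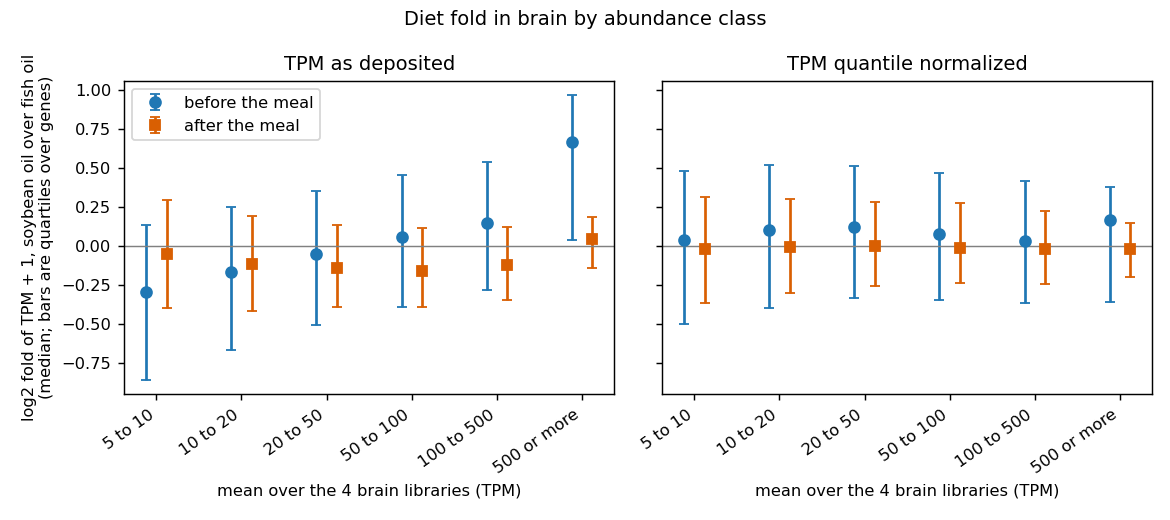
Log2 fold of TPM + 1 in brain, soybean oil over fish oil, by the gene's mean TPM over the 4 brain libraries, before the meal (circles) and after it (squares); symbols are medians and bars the quartiles over genes. On TPM as deposited the median before the meal runs from -0.30 in the lowest class to 0.67 in the highest, and after quantile normalization all medians lie between -0.02 and 0.16.

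After the meal the diets differed less. At least 2-fold higher with soybean oil were 1157 genes (5.38%) and at least 2-fold lower 1253 (5.82%), and the median log2 fold was -0.10. Quantile normalization gave 1302 higher and 1181 lower genes with a median of -0.01. The most abundant genes had no shift of the kind seen before the meal, with a median of 0.05 for the 180 genes of 500 TPM or more, and the median of the genes of 50 to 100 TPM was -0.16, against 0.06 before the meal.

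Set beside all pairs of brain libraries, the diet pair after the meal was the closest and the diet pair before the meal was not the farthest. In the pairs that differed in diet alone, 11.2% of genes were at least 2-fold apart after the meal and 21.1% before it. Between the feeding states of one diet, after against before the meal, 18.7% were at least 2-fold apart with soybean oil and 27.4% with fish oil. The share was 24.3% between soybean oil before and fish oil after the meal, and 17.3% between soybean oil after and fish oil before it. Pearson's r across genes, which are not independent, was 0.831 for the diet pair after the meal and 0.803 for that before it, and 0.727 for the feeding states of fish oil, the lowest of the 6. The shares of the diet pairs thus overlapped those of pairs fed the same diet.

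**Figure D2:**
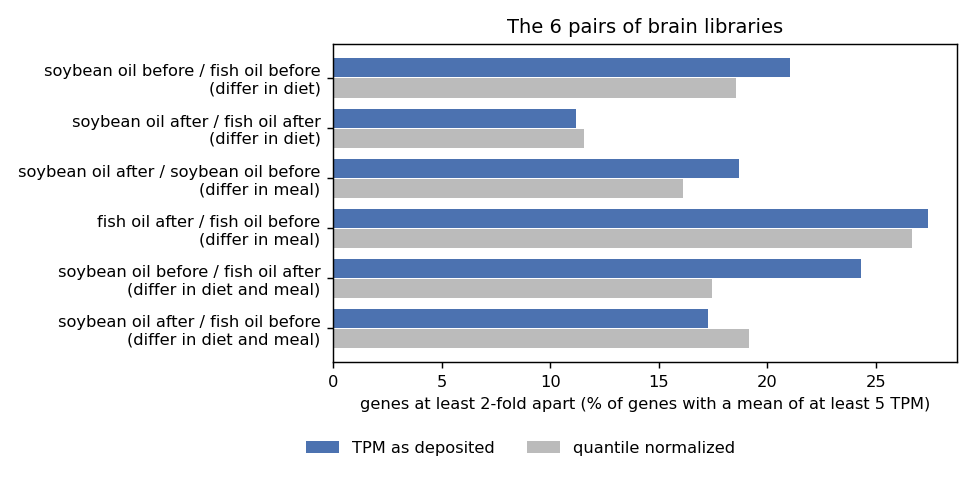
Share of the 21514 genes at least 2-fold apart on log2(TPM + 1) in each of the 6 pairs of brain libraries, named as first over second library, as deposited and quantile normalized. The diet pair after the meal has the lowest share (11.2% as deposited) and the feeding states of fish oil have the highest (27.4%).

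Genes at least 2-fold apart by diet in both feeding states had opposite signs more often than the same sign. At least 2-fold higher with soybean oil in both pairs were 76 genes (0.353%), at least 2-fold lower in both were 268 (1.25%), and 613 were at least 2-fold apart in both pairs with opposite signs (2.85%). After quantile normalization the numbers were 135, 207 and 631. The pairs share no library. Across the 21514 genes the folds of the pairs had a Pearson's r of -0.16 and a Spearman's rho of -0.22, and the sign was the same in 43.6% of genes, where the shares of higher and lower genes in each pair alone would give 51.5%. In each of the 6 abundance classes r was below 0, from -0.12 to -0.28. Over all 21514 genes, the sign of the diet fold thus recurred in fewer genes than the shares of each pair would give. The counts of 2-fold genes were not set against such shares, so they do not show whether fewer or more genes recurred.

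**Figure D3:**
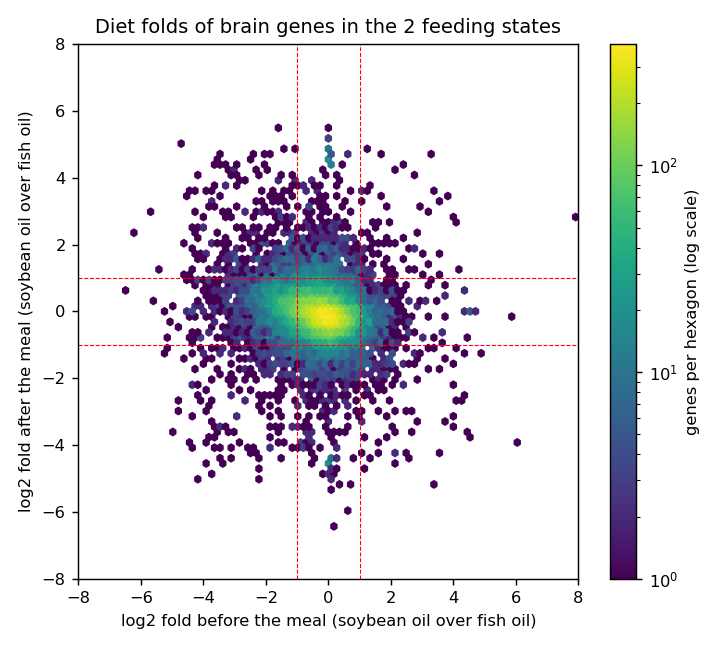
Diet folds of the 21514 brain genes before the meal (x axis) and after it (y axis), as log2 fold of TPM + 1, soybean oil over fish oil; colour gives the number of genes per hexagon and dashed lines mark 2-fold. The upper right corner holds 76 genes, the lower left 268, and the 2 corners of opposite sign 613.

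No gene passed a test for diet. Limma on log2(TPM + 1) over the 4 brain libraries, with diet and feeding state as factors and Benjamini-Hochberg adjustment over the 21514 genes, called 0 genes (0%), with a lowest adjusted p of 1.00. An unadjusted p under 0.05 was found for 529 genes, or 2.46%, a smaller share than evenly spread p-values would give. The test has 1 residual degree of freedom per gene, which is the difference of the diet fold between the feeding states, and a count of 0 under it leaves real diet differences possible. A fit over all 12 libraries called 0 genes as well, and 720 had an unadjusted p under 0.05; its lowest limma adjusted p was 0.12. Fits with 1 library left out keep a single library of 1 diet, so the genes they call are not given. Without any filter on low values the brain fit called 124 of 204379 genes.

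The genes that differed most in both states were low. Of the 76 higher genes 61.8% had a mean under 10 TPM and of the 268 lower genes 66.8%, beside 47.7% of all 21514. Listed at 0 in at least 1 of the 4 libraries were 38.2% of the higher and 30.2% of the lower genes, beside 2.81% of all genes, and both lists lost these members when only genes above 0 in all libraries were kept, to 47 and 187. A value of 0 makes a large fold in its pair likely, so the choice of the lists by fold favoured such genes. Just inside the limit of 5 TPM, the nearest 100 genes held 3 that were higher and 1 that was lower in both states, and the nearest 100 just outside it held 2 of each. The diets did not overlap in 64 of the 76 higher and 246 of the 268 lower genes. The choice of both lists from the same 4 libraries largely fixed this, so these counts are no support for a diet difference. Over all genes both soybean oil libraries lay above both fish oil libraries in 5.5% and below them in 15.1%.

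TRINITY_DN142974_c2_g2 was at 13.7 and 10 TPM in the soybean oil libraries before and after the meal, and each fish oil library listed it at 0. TRINITY_DN159805_c0_g1 stood at 9.48 and 11.6 TPM with soybean oil and was likewise listed at 0 with fish oil. These had the largest smaller fold of the higher genes, and their diets did not overlap (limma adjusted p = 1.00 for each). Both were also listed at 0 in every liver and spleen library. TRINITY_DN98530_c0_g3 was listed at 0 in both soybean oil libraries and at 17.4 and 29.96 TPM in those fed fish oil before and after the meal (limma adjusted p = 1.00). TRINITY_DN110280_c2_g1 was listed at 0 with soybean oil and at 20.01 and 16.5 TPM with fish oil (limma adjusted p = 1.00). Without the soybean oil library before or after the meal the mean log2 fold was -4.58 for TRINITY_DN98530_c0_g3 and -4.26 for TRINITY_DN110280_c2_g1. Both genes were at 0 in each soybean oil library, so leaving either library out could not change this mean. Without the fish oil library before or after the meal the mean was -4.95 and -4.20 for TRINITY_DN98530_c0_g3 and -4.13 and -4.39 for TRINITY_DN110280_c2_g1. In each of these fits 1 diet had a single library. In liver both of these lower genes were also listed at 0 with soybean oil; with fish oil TRINITY_DN98530_c0_g3 was at 4.44 and 14.8 TPM there and TRINITY_DN110280_c2_g1 at 0 and 6.73 TPM. In spleen TRINITY_DN110280_c2_g1 was listed at 0 throughout, and TRINITY_DN98530_c0_g3 was at 19.6 and 7.96 TPM with soybean oil against 22.1 and 568 TPM with fish oil.

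Some genes were seen with one diet alone. These were counted over all 280408 genes, without the limit on the mean. At 5 TPM or more in both soybean oil libraries but at 0 in each library of the fish oil diet were 28 genes, and 75 showed the reverse. By feeding state, 70 genes were seen in both libraries after the meal and in neither before it, and 27 the other way. Such genes were thus found for either factor, so these counts are no measure of a diet difference. Summing TPM over the IDs of a Trinity component, the cluster of related contigs that Trinity may split into several genes, left 15 and 54 features seen with one diet alone.

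Many of these genes had values that stood at steps to each other. In the 75 genes seen with fish oil alone, TPM after the meal divided by TPM before it was within 1% of a ratio of whole numbers up to 3, times a single step of 1.37, in 43 genes (57.3%). In the 28 genes seen with soybean oil alone this held for 13 (46.4%) with a step of 1.23. Each step was the one that fitted most genes. Among the 1754 genes above 0 in all 4 libraries whose mean was 50 TPM or more, 5.82% and 5.19% of the same ratios fell on these positions. With a step fitted to these 1754 genes the shares were at most 6.44% and 6.90%. A step fitted to 75 or 28 ratios can gain more than a step fitted to 1754. The 75 and 28 genes were also lower, with a median value of 8.075 and 7.05 TPM where above 0, so the 1754 are no matched reference. The number of reads behind these values is not known. TRINITY_DN159805_c0_g1 lay at 1.00 times the step, while the ratios of TRINITY_DN142974_c2_g2, TRINITY_DN110280_c2_g1 and TRINITY_DN98530_c0_g3, at 0.596, 0.60 and 1.26 times it, were not among the positions counted.

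**Figure D4:**
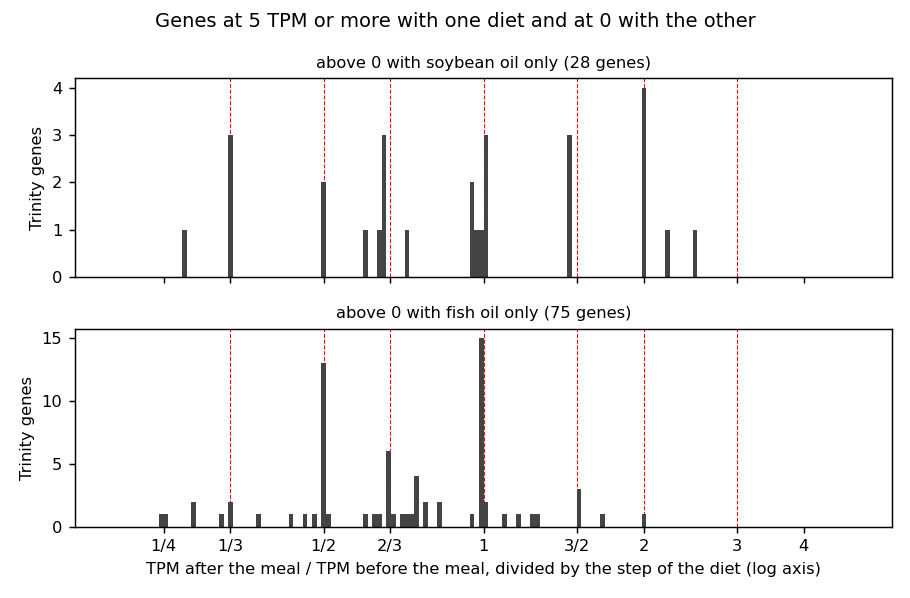
Number of Trinity genes by the ratio of TPM after to TPM before the meal, divided by the step of the diet (1.23 for soybean oil, 1.37 for fish oil; log axis), for the 28 genes at 5 TPM or more with soybean oil and at 0 with fish oil and the 75 of the reverse; dashed lines mark ratios of whole numbers up to 3. In the fish oil panel 17 genes are within 1% of 1 step and 14 within 1% of 1/2 step.

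Values were repeated among genes of a single library. These too were counted over all 280408 IDs. Between 5 and 10 TPM, 932 and 2083 IDs were above 0 only in the soybean oil library before or after the meal. In the fish oil library before or after the meal alone they were 2511 and 2011. The 2511 took 159 distinct values at 2 decimals, of 500 possible, and the 20 commonest values held 60.1% of them. In the same library and range, the 10051 IDs of at least 1 TPM in all 4 libraries filled all 500 values, and the 20 commonest held 7.30%. In the other 3 libraries the 20 commonest values held 49.5% to 53.8% of the single-library IDs.

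Among the 595 genes of 100 to 500 TPM, 2 were at least 2-fold higher with soybean oil in both states, a share of 0.336% that is near the 0.353% of all genes, and 0 were lower. The 180 genes of 500 TPM or more held 0 of either kind. TRINITY_DN116451_c2_g2 was at 725 and 928 TPM in the soybean oil libraries before and after the meal, against 2.04 and 128 TPM in the fish oil libraries. Its log2 fold of 7.90 before the meal was the largest of all 21514 genes, and it was 2.85 after the meal (limma mean log2 fold 5.37 ± 1.16, SE; adjusted p = 1.00). Without the fish oil library before the meal the mean was 2.67, and without that after the meal 8.08, each with a single library for fish oil. The diets did not overlap, and the fish oil library before the meal stood far below the other 3. In spleen the gene was at 669 and 536 TPM with soybean oil and at 2.20 and 329 TPM with fish oil, so that the same group was lowest there, whereas in liver the lowest was fish oil after the meal, with 91.5 and 7.46 TPM with soybean oil against 40.9 and 0.41 TPM with fish oil.

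The second gene, TRINITY_DN122944_c0_g1, described here after its values were seen, was at 397 and 503 TPM in the soybean oil brains against 161.2 and 36.1 TPM in brains of the fish oil diet (limma mean log2 fold 2.53 ± 0.64, SE; adjusted p = 1.00). In liver it was at 245 and 62.3 TPM with soybean oil against 35.6 and 28.3 TPM with fish oil, and in spleen at 615 and 244 TPM against 224 and 124 TPM. It was higher with soybean oil in all 6 pairs matched for tissue and feeding state. The same held for 4 of the 13 genes of the higher list that reached a mean of 5 TPM in each tissue, and 3 of the 38 of the lower list were lower in all 6. Of all 6434 genes that reached this mean in each tissue, 0.917% were higher and 2.3% lower in all 6 pairs, but the choice of both lists, and of this gene, fixed the brain pairs, so these shares are no measure of recurrence. Whether the 3 tissues of a group were taken from the same animals is not stated.

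Of abundant genes with smaller differences, TRINITY_DN120883_c3_g1 was at 282 and 265 TPM in the soybean oil brains before and after the meal against 492 and 589 TPM in those of the fish oil diet, without overlap (limma mean log2 fold -0.97 ± 0.41, SE; adjusted p = 1.00). In liver it was at 281 and 193 TPM with soybean oil against 468 and 422 TPM with fish oil. Lower with soybean oil in both liver pairs were 48.7% of all 10480 liver genes. In spleen TRINITY_DN120883_c3_g1 was nearly unread, at 0.89 TPM or less in every library. TRINITY_DN117242_c0_g1 reached 589 and 1108 TPM with soybean oil and 256 and 692 TPM with fish oil, so that the diets overlapped although the soybean oil library was higher in each feeding state. TRINITY_DN132531_c2_g1 stood at 1727 and 334 TPM in soybean oil brains and at 2673 and 538 TPM with fish oil; its values also overlapped, and the libraries before the meal were above those after it in both diets (limma adjusted p = 1.00 for both genes). The mean log2 fold of TRINITY_DN132531_c2_g1 was -0.66 with all 4 libraries, 0.53 without the soybean oil library after the meal and 0.50 without the fish oil library before it. With a library left out, feeding state is not balanced between the diets, so the difference between the feeding states enters this mean.

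**Figure D5:**
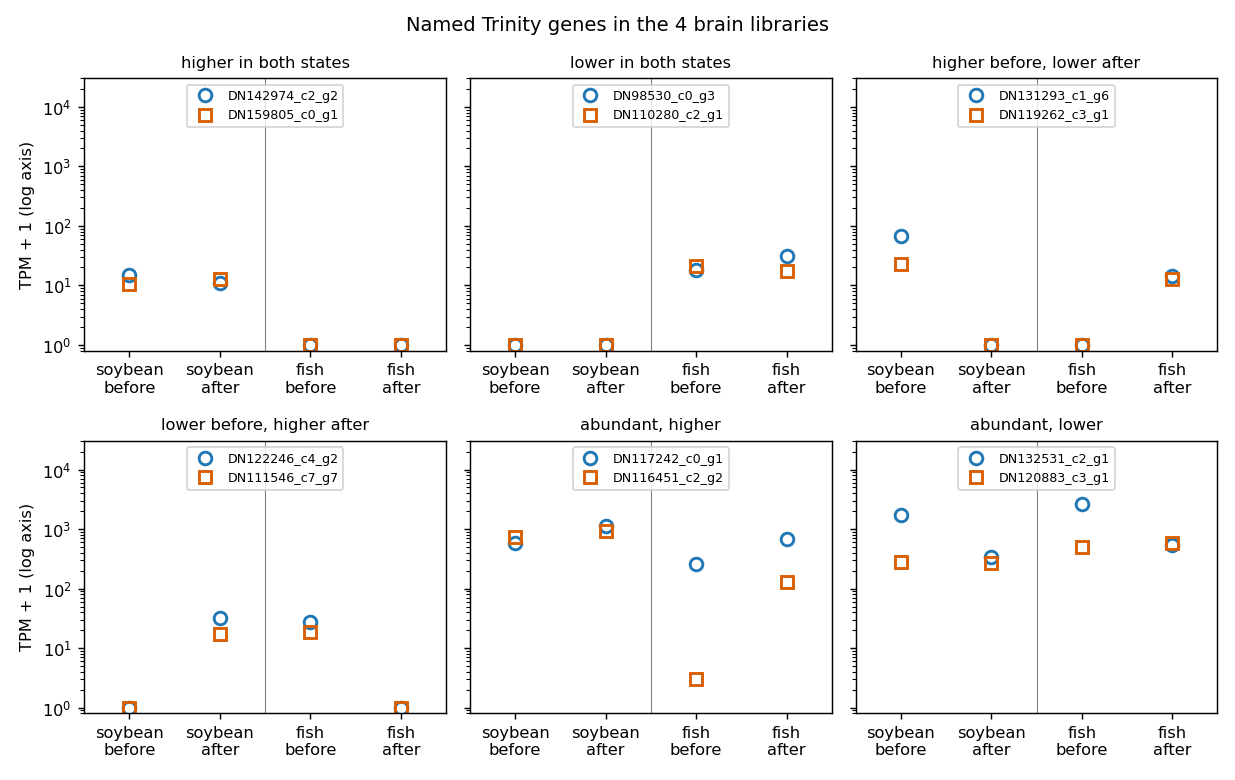
TPM + 1 (log axis) of named Trinity genes in the 4 brain libraries, 1 point per gene and library, soybean oil left of the line and fish oil right of it; points on the lowest line are listed at 0. The 4 genes of the first 2 panels are at 0 with one diet, and TRINITY_DN116451_c2_g2 in the panel of abundant higher genes is at 2.04 TPM in the fish oil library before the meal.

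TRINITY_DN116451_c2_g2, with the largest fold before the meal, was higher with soybean oil after it too, but the other IDs with the largest folds of a pair did not recur in this way. Before the meal, after TRINITY_DN116451_c2_g2, the highest fold was that of TRINITY_DN131293_c1_g6, at 66.2 TPM with soybean oil and listed at 0 with fish oil; after the meal it was listed at 0 with soybean oil and at 13.6 TPM with fish oil. TRINITY_DN102718_c0_g1 was listed at 0 with soybean oil and at 86.3 TPM with fish oil before the meal, while after it the values were 8.09 TPM with soybean oil and 5.06 TPM with fish oil. TRINITY_DN114619_c0_g1 was at 0.65 TPM with soybean oil and 118 TPM with fish oil before the meal, and after it at 86.5 TPM with soybean oil and 15.3 TPM with fish oil. Of these 3, the sign was reversed after the meal in each. The other IDs of the component of TRINITY_DN131293_c1_g6 summed before the meal to 17.5 TPM with soybean oil and 5.16 TPM with fish oil. After it they summed to 5.18 and 7.15 TPM. Whether IDs of a component divided reads differently between libraries was not tested.

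After the meal, TRINITY_DN113437_c0_g1 was at 46.6 TPM with soybean oil and listed at 0 with fish oil, as it was in both libraries before the meal. TRINITY_DN130041_c2_g1 was at 41.6 TPM with soybean oil and listed at 0 with fish oil after the meal, and at 6.66 TPM against 22.2 TPM before it. Lowest with soybean oil after the meal was TRINITY_DN117301_c4_g1, listed at 0 against 85.2 TPM with fish oil, while before the meal it was at 69.2 TPM against 58.0 TPM. TRINITY_DN135575_c0_g6 was listed at 0 with soybean oil against 60.7 TPM with fish oil after the meal and at 29.0 TPM against 18.7 TPM before it. In the pair before the meal, 3 of these 4 genes thus differed by less than 2-fold or not at all, and the other, TRINITY_DN130041_c2_g1, was lower with soybean oil.

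Of the 613 genes whose folds of 2 or more had opposite signs in the feeding states, 431 were lower with soybean oil before the meal and higher after it, and 182 the reverse. TRINITY_DN122246_c4_g2 was listed at 0 with soybean oil against 26.0 TPM with fish oil before the meal, and at 31.6 TPM against 0 after it. TRINITY_DN111546_c7_g7 was listed at 0 against 18.0 TPM before the meal and at 16.5 TPM against 0 after it. TRINITY_DN131293_c1_g6, given above, and TRINITY_DN119262_c3_g1, at 21.8 TPM with soybean oil against 0 with fish oil before the meal and at 0 against 11.98 TPM after it, had the reverse pattern. Before the meal the other IDs of the component of TRINITY_DN119262_c3_g1 summed to 3.41 TPM with soybean oil and 4.54 TPM with fish oil. After it they summed to 5.09 and 11.5 TPM. For TRINITY_DN111546_c7_g7 the sums were 2.81 and 4.54 TPM before the meal and 2.24 and 3.11 TPM after it. For TRINITY_DN122246_c4_g2 they were 0 and 0.54 TPM, then 0.71 and 2.22 TPM. Whether the diet fold of a gene differed between feeding states could not be tested, since no group has a second library.

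Genes enriched in spleen were among those whose diet fold turned. Of the spleen-enriched genes, 62 had a mean of at least 5 TPM in brain, with a median log2 fold for diet of 0.41 before the meal and -0.84 after it, beside -0.18 and -0.10 for all genes. After quantile normalization the medians were 0.61 and -0.78, and for the 256 genes that were at least 4-fold enriched in spleen they were 0.15 and -0.36. Before the meal 41 of the 62 were higher with soybean oil, and after it 46 were lower. Of the 182 genes that were higher before and lower after the meal, 13 were spleen-enriched, 7.14% of that list and 21.0% of the 62. Over all 21514 genes, 0.288% were spleen-enriched and 0.846% were in that list. Of the 431 genes with the reverse signs 0 were spleen-enriched. All spleen-enriched genes together took 0.881% of brain TPM before the meal and 0.342% after it with soybean oil, against 0.38% and 0.616% with fish oil. These shares overlapped between the diets. Fewer cells of a type and less RNA per cell cannot be told apart in such tissue samples.

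The most abundant gene with opposite signs was one of these. TRINITY_DN137651_c2_g1, described after its values were seen, was at 2994 TPM with soybean oil against 801 TPM with fish oil before the meal and at 1004 TPM against 2100 TPM after it. In spleen it was at 24017 and 19435 TPM with soybean oil and 17879 and 16639 TPM with fish oil. TRINITY_DN121269_c4_g1 followed it at 1577 TPM against 623 TPM before the meal and 589 TPM against 1192 TPM after it, with 11010 to 14373 TPM in spleen. Both were abundant in liver too, TRINITY_DN137651_c2_g1 at 961 to 1693 TPM and TRINITY_DN121269_c4_g1 at 644 to 1222 TPM. Together they made up a large part of the TPM that spleen-enriched genes took in each brain library, so those shares mostly follow few genes. The part of spleen-enriched RNA in the other genes that turned was not tested.

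Liver-enriched genes, of which 126 had a mean of at least 5 TPM in brain, had a median log2 fold of -0.29 before the meal and 0.15 after it, and of -0.02 and 0.23 after quantile normalization. The 1417 brain-enriched genes had medians of -0.36 and -0.21, so that they lay below the median of all genes in both states. At least 2-fold higher in both states were 3 of them and at least 2-fold lower 18, which is 3.95% of the 76 higher and 6.72% of the 268 lower genes, where brain-enriched genes made up 6.59% of all 21514.

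In liver and spleen, libraries that the choice of genes did not use, few of the brain genes could be followed. Of the 76 genes that were higher with soybean oil in brain in both states, 16 reached a mean of 5 TPM in liver, of which 5 were higher and 5 lower in both liver pairs, beside 9.9% and 48.7% of the 10480 liver genes. Their median log2 folds in liver were 0.20 before and -0.21 after the meal. In spleen 39 could be followed, and 13 were higher and 8 lower in both pairs, beside 16.5% and 20.3% of 17803 genes. Of the 268 lower genes, 27 of 59 were lower in both liver pairs, and 7 were higher. In spleen 30 of 107 were lower in both pairs and 9 were higher. The median log2 fold of these lower genes was -1.24 in the spleen pair before the meal and 0.56 in that after it, beside -0.21 and 0.22 for all spleen genes. Lower in both pairs were thus 45.8% of the lower genes in liver and 28.0% in spleen, beside 48.7% and 20.3% of all genes. Higher in both pairs were 31.25% of the higher genes in liver and 33.3% in spleen, beside 9.9% and 16.5%. At least 2-fold lower in both were 7 of the 59 and 13 of the 107, and 1 in each tissue was 2-fold higher. Over all genes 331 of 10480 and 278 of 17803 were 2-fold lower in both. Of the higher genes, 2 of 16 in liver and 4 of 39 in spleen were 2-fold higher in both, and 1 and 3 were 2-fold lower. Over all genes 64 of 10480 and 169 of 17803 were 2-fold higher in both. Whether the lists differed from all genes of a tissue was not tested.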

How the data were processed

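RNA was extracted with TRIzol, and libraries (TruSeq) were sequenced as 125-bp paired-end reads and assembled with Trinity, as stated per the labels' protocols. The deposited values are TPM for each Trinity gene. How the authors quantified TPM, and whether by strand, is not given in the sources used here. Because TPM divides by each library's total, other genes are lower when a few take more of it. IDs of 1 Trinity component (46.7% of IDs share one) can divide reads.

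Groups were taken from the labels. Folds are on log2(TPM + 1), which understates the change of low genes. Quantile normalization was applied to the 21514 genes. Limma 3.58.1 (trend, robust, R 4.3.3) was fitted to the 4 brain libraries with a Benjamini-Hochberg threshold of 0.05, and was tested on simulated data. There it called 0% of 100 genes given a log2 fold of 2 and 59% of 100 given a log2 fold of 4, with 11 false calls. A count of 0 in the brain libraries is thus no sign that differences of a log2 fold of 2 are absent. At a log2 fold of 4 single genes could be missed too. How many genes of that size the brain libraries hold was not tested. Tissue-enriched genes averaged 10 TPM or more in a tissue and exceeded each other tissue 8-fold with a limma adjusted p under 0.05 over the 12 libraries. Python 3.11.15, pandas 2.3.3, numpy 2.4.6, scipy 1.17.1 and matplotlib 3.10.9 were used.

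The files hold no gene names, so the planned lists of named genes were not used. The members and lists were chosen with earlier results of these data known. Named IDs follow a rule: at most 2 higher and 2 lower per comparison, those with the largest fold in a pair, the largest smaller fold over both pairs, with equal or opposite signs, or the highest mean TPM among genes that differed 1.5-fold or more in each pair. TRINITY_DN122944_c0_g1, TRINITY_DN137651_c2_g1 and TRINITY_DN121269_c4_g1 were chosen after their values were seen. Alternatives were quantile normalization, a pseudocount of 0.1, other filters, thresholds and models, sums per component, and each library left out. P-values measure only the spread between these libraries.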

Additional observations from a re-analysis of the deposited data

Results flagged for a closer look

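Of 29 groups of 4 brain values examined with Dixon's ratio at its critical value, 4 had a library far from the other 3, where chance gives about 1 in 20 for independent normal values. Of all 280408 genes, the soybean oil library before the meal held 1174 at 5 TPM or more that were listed at 0 in the other 3 libraries. The other libraries held 2726 to 2990 such genes. The same library listed 345 of the 21514 genes at 0, and the others 189 to 202. TRINITY_DN102718_c0_g1 was at 86.3 TPM in the fish oil library before the meal and at 8.09 TPM or less in the others. TRINITY_DN113437_c0_g1 was at 46.6 TPM in the soybean oil library after the meal and listed at 0 in the others. These IDs were picked for a large fold in 1 pair, so 1 in 20 is no fair reference for them.

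The diet fold had opposite signs before and after the meal in the 4 IDs picked for it, and the difference was not tested. The log2 folds before and after the meal were 6.07 and -3.87 for TRINITY_DN131293_c1_g6, 4.51 and -3.70 for TRINITY_DN119262_c3_g1, -4.76 and 5.03 for TRINITY_DN122246_c4_g2, and -4.24 and 4.13 for TRINITY_DN111546_c7_g7.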

How the results depend on the processing

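The limma count of 0 calls was kept with quantile normalization, a pseudocount of 0.1, stricter or looser filters, component sums, other models and all 12 libraries; without a filter it was 124, and with each library left out 0 to 43. The causes of the changes below were not tested, except that other filters and thresholds change the number of genes by construction. With a library left out, feeding state is not balanced between the diets, so differences between the feeding states enter the diet fold. Counts are given as 2-fold higher and lower with soybean oil before the meal, higher and lower after it, higher and lower in both states, and opposite in sign. With at least 1 TPM in at least 2 libraries they were 3251, 14154, 5561, 5678, 735, 2076 and 3526. With no filter the first 4 were 8669, 34027, 16508 and 16811, and the last 3 were again 735, 2076 and 3526. With a mean of at least 20 TPM they were 307, 530, 182, 171, 11, 24 and 96. At 1.5-fold they were 2585, 6371, 2408, 3288, 248, 854 and 1841, and at 4-fold 180, 848, 349, 326, 14, 61 and 110. Quantile normalization gave 1708 and 2282 before the meal and 135 higher in both, and genes above 0 in all 4 libraries, chosen after the data were seen, 47 higher in both. With 1 library left out, compared over the pairs that remain, 218 to 445 genes were higher and 393 to 1284 lower in both; these pairs share a library. Genes whose diet means were 2-fold apart numbered 406 higher and 1098 lower; they were 1489 and 4356 at 1 TPM in 2 libraries, 61 and 115 at a mean of 20 TPM, 240 higher when above 0 in all 4, and 632 to 947 and 903 to 2782 with a library left out. With quantile normalization, genes whose diet means were 2-fold apart were 600 higher and 735 lower, so the predominance of lower genes shrank. The median log2 fold before the meal turned to 0.073 with quantile normalization and to 0.013 at a mean of 20 TPM. It was -0.34 at 1 TPM in 2 libraries and -0.28 for component sums. The median after the meal was -0.013 with quantile normalization and -0.025 at 1 TPM in 2 libraries. Genes at 0 with one diet and above a limit with soybean oil or fish oil numbered 468 and 1230 at 1 TPM, 1 and 13 at 10 TPM, and 15 with soybean oil for component sums. The brain-enriched medians were -0.20 before and -0.080 after the meal with quantile normalization. TRINITY_DN132531_c2_g1 turned to a mean log2 fold of 0.53 without the soybean oil library after the meal and 0.50 without the fish oil library before it, within a range of -1.84 to 0.53 over the libraries left out. Libraries carry no replicate numbers; the main test pairs them by feeding state, and with feeding state counted as spread 0 genes were called. Depth is unknown, so the precision of values of a few TPM is not known.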
